A study of Rattus norvegicus with 16 samples.

Results

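Dbp, Tef, Hlf, Nfil3, Nr1d1, Nr1d2 and Rora are the transcription factors that carry the time of the circadian clock on to its output genes, and their mRNA was followed in the kidney of diabetic rats given sinomenine. They were taken by gene name from the deposited expression table and are 7 of its 35849 genes. Kidney RNA of 16 male Sprague Dawley rats was sequenced, with 4 rats in each of 4 groups. Rats of the DN (diabetic nephropathy) group received streptozotocin, which kills the insulin-producing beta cells, at 45 mg/kg together with a diet rich in glucose and fat, and were kept when their blood glucose was over 16.7 mmol/L. The SIN (20 mg/kg) group and its counterpart at the higher dose, SIN (40 mg/kg), had the same streptozotocin and diet and then sinomenine, an alkaloid of the plant Sinomenium acutum, by gavage each day for 8 weeks, while the DN group was given vehicle. The normal group had citrate buffer and ordinary food, so that streptozotocin and diet cannot be told apart in any comparison with it. The rats were 6 to 8 weeks old at the start. The hour at which kidneys were taken is not given in the sources used here, so a difference in hour between groups cannot be told apart from diabetes or sinomenine in any comparison.

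DBP, TEF and HLF form the PAR bZIP family. They bind the D-box, a short palindrome in promoters, and activate transcription, and NFIL3 (also called E4BP4) binds the same D-box and represses it. The other 3 factors are nuclear receptors that share the ROR element, where RORα (Rora) activates and REV-ERBα (Nr1d1) and REV-ERBβ (Nr1d2) repress, among others at the gene for BMAL1 (Arntl in the table). The clock's activator, CLOCK with BMAL1, drives Dbp, Tef and both REV-ERB genes through E-boxes. The mRNA of Dbp and Nr1d1 is known to swing widely over the day in most tissues, the kidney included, and PAR bZIP factors are known there and in the liver for their control of detoxification genes.

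RefSeq promoter windows on the GRCr8 build, from 250 bases before to 50 after a transcription start, were given for 6 of the 7 genes (7 windows, with 2 starts of Nr1d1). Hlf had none. They were searched on both strands for the E-box CACGTG, the related E′-box CACGTT, the D-box as TTATGTAA, TTACGTAA or TTATATAA, and the ROR element core TAGGTCA. Of 33469 rat promoter windows of this length, 6.42% held the E-box, 4.83% the E′-box, 1.48% a D-box and 2.63% the ROR element core. The windows of Tef and of both Nr1d1 starts held an E-box or E′-box, and that of Bmal1 held the ROR element core. These 4 are shown because they hold letters of the elements described above, with the matched motif in capitals (at the first Nr1d1 start it is read on the opposite strand). A match is a description and not a binding site.
Tef, chr7:115206577-115206876, plus strand: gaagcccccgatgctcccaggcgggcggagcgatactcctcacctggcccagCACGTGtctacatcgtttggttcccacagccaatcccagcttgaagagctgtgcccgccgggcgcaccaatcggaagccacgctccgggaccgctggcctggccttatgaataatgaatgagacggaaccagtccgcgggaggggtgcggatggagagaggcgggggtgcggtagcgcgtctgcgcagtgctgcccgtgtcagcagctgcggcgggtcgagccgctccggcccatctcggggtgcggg
Nr1d1, first start, chr10:84231763-84232062, minus strand: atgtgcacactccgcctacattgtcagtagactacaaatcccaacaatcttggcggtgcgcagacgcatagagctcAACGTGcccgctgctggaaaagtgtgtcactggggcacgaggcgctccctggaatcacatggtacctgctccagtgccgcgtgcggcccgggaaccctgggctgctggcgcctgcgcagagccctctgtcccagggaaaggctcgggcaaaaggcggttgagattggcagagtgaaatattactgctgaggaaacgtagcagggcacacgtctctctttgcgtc
Nr1d1, second start, chr10:84229405-84229704, minus strand: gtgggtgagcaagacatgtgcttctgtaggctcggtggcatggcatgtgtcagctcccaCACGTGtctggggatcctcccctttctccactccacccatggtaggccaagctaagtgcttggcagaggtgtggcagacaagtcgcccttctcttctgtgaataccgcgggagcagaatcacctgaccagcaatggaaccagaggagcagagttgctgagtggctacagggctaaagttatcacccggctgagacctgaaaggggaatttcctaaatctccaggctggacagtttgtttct
Bmal1, chr1:176766078-176766377, plus strand: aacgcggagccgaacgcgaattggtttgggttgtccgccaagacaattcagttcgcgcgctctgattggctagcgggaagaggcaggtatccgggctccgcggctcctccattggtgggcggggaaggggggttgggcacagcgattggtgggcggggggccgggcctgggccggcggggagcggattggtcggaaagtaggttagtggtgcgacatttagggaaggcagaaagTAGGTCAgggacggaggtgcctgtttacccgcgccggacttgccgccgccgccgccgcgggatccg
The motif lay 198 bases before the start in Tef, 174 and 191 bases before it at the first and second start of Nr1d1, and 16 bases before it in Bmal1. None of the motifs was found in the windows of Dbp, Nfil3, Nr1d2 and Rora, which says only that these letters are not in these stretches.

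The libraries held between 19616312 and 25217030 estimated counts. Proximal tubule markers summed to between 6016.2 and 11194.2 CPM in every rat (counts per 1000000 counts of the library), as kidney should, while adrenal cortex and skeletal muscle markers stayed at or below 4.8 CPM. Of 41 marker genes for kidney and neighbouring cell types, 33 were tested between DN and normal, and 2 rose (Pdgfrb and Cidec) and 4 fell (Umod, Slc26a4, Ptprc and Apob). The 2 thick ascending limb markers summed to 3404.0 to 4396.7 CPM in normal rats and 1881.3 to 3212.0 CPM in DN rats, and the 3 principal cell markers to 189.5 to 661.3 and 470.0 to 1367.5 CPM. The 4 mesenchyme and smooth muscle markers summed to 141.6 to 477.8 CPM in DN rats, highest in DN replicate 3, and to 105.5 to 173.1 CPM in every other rat. The 3 fat markers summed to 59.1 to 67.1 CPM in normal rats and to 84.4 to 125.9 CPM in DN rats. In the SIN groups they summed to 95.7 to 145.4 CPM at 20 mg/kg and 63.1 to 122.6 CPM at 40 mg/kg. DN replicate 3 stood apart for Tef, and replicate 1 of the SIN (20 mg/kg) group for Dbp, Tef and Nr1d1. Values without them are given beside some, not all, of the results that they move. The part of these differences in the values below was not tested, and in whole tissue fewer cells of a type and less RNA per cell cannot be told apart. Libraries were numbered group by group, so a batch and a group cannot be told apart either.

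Across the 7 genes, all of which passed the filter on low counts in every comparison, diabetic kidneys differed from normal ones in 4. Dbp, Tef and Nr1d1 rose and Rora fell, while Hlf, Nr1d2 and Nfil3 did not pass the test. A gene was called at an adjusted p under 0.05 by the quasi-likelihood test of edgeR, which 19.5% of the 15775 genes tested between DN and normal met (8.74% higher, 10.8% lower). Asking in addition for an absolute log2 change of 1 or more, which 3.8% of genes met, left Dbp and Nr1d1. The groups did not overlap for the same 4 genes, against 24.3% of all genes tested.

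Per kilobase of transcript, which allows levels to be set beside each other, the normal kidney held most Tef (mean 83.6 CPM per kilobase), then Hlf (38.6), Dbp (17.5), Nr1d1 (14.9), Rora (10.5), Nr1d2 (8.5) and Nfil3 (4.56). In DN the order was Tef (118.5), Dbp (60.2), Hlf (39.0), Nr1d1 (31.4), Nr1d2 (8.62), Rora (6.11) and Nfil3 (3.43). At 40 mg/kg it was Tef (199.0), Dbp (112.2), Hlf (53.2), Nr1d1 (24.5), Nr1d2 (15.8), Rora (8.54) and Nfil3 (1.67). Dbp thus stood below Hlf in the normal group and above it in all 3 diabetic groups. Going up through the group means, Dbp, Tef and Nr1d2 ran normal, DN, 20 mg/kg and 40 mg/kg, and Nfil3 ran in the opposite order. Of all neighbouring groups in the orders of the 7 genes, edgeR's adjusted test separated normal from DN for Dbp and Tef and no other pair.

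Dbp (ENSRNOG00000021027) is the PAR bZIP factor with the widest range here, from 20.4 to 222.7 CPM over the 16 rats. Its levels were 20.4, 26.7, 28.1 and 43.9 CPM in the normal rats and 72.6, 106.5, 145.0 and 86.1 CPM in the DN rats. They were 95.6, 207.3, 201.7 and 210.6 CPM in the SIN (20 mg/kg) group and 178.1, 222.7, 213.8 and 149.5 CPM in the SIN (40 mg/kg) group. Every normal rat lay below every rat of the other groups, every SIN (40 mg/kg) rat lay above every DN rat, and replicate 1 of the SIN (20 mg/kg) group fell within the DN range. The group means were 29.8 ± 10, 102.5 ± 31.5, 178.8 ± 55.6 and 191.0 ± 33.7 CPM (SD, n = 4 each) in the normal group, the DN group and the lower and higher dose of sinomenine. Dbp was thus 3.43-fold higher in DN than in normal (log2 fold change 1.78, SE 0.27, 95% interval 1.19 to 2.37, edgeR adjusted p = 0.00524). Against normal it rose 5.99-fold at 20 mg/kg and 6.43-fold at 40 mg/kg (log2 2.58, SE 0.29, and 2.68, SE 0.23, edgeR adjusted p = 0.00128 and 0.000372). Between the SIN groups and DN the log2 difference was 0.80 (0.19 to 1.42) at 20 mg/kg and 0.91 (0.45 to 1.38) at 40 mg/kg, and neither passed the adjusted test. Without DN replicate 3 the log2 fold changes of Dbp were 1.57 for DN over normal and 1.02 and 1.12 for the lower and higher dose over DN, and without SIN (20 mg/kg) replicate 1 that of the lower dose was 1.01 over DN and 2.79 over normal.

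Tef (ENSRNOG00000019383), a close relative of Dbp, stood at 88.4, 108.3, 84.9 and 114.1 CPM in the normal group and 128.3, 131.2, 178.2 and 123.1 CPM in the DN group. The values were 146.0, 207.3, 211.8 and 212.0 CPM at 20 mg/kg and 240.2, 235.3, 242.2 and 224.0 CPM at 40 mg/kg. The 4 SIN (40 mg/kg) rats were close together and above all other rats, and DN replicate 3 was apart from the rest of its group. Tef rose 1.42-fold from normal to DN (log2 0.50, SE 0.14, edgeR adjusted p = 0.0392). That call was lost without any one of normal replicates 1, 3 and 4 and DN replicates 1, 2 and 3 (adjusted p up to 0.109), and without DN replicate 3 the log2 fold change was 0.37. Its rise over normal was 1.96-fold at 20 mg/kg and 2.39-fold at 40 mg/kg (edgeR adjusted p = 0.00478 and 0.000372).

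Hlf (ENSRNOG00000002456), the remaining PAR bZIP gene, measured 36.1, 30.6, 33.1 and 37.3 CPM in normal rats and 29.3, 29.1, 40.2 and 39.9 CPM in DN rats. It measured 58.1, 59.3, 59.9 and 51.0 CPM at 20 mg/kg and 50.6, 42.2, 50.3 and 45.9 CPM at 40 mg/kg. The normal and DN groups overlapped, and every rat given sinomenine lay above every rat without it. The log2 difference of DN from normal was 0.01 (-0.29 to 0.32), and Hlf rose over normal by 0.74 (SE 0.10) at 20 mg/kg and 0.47 (SE 0.10) at 40 mg/kg, with edgeR adjusted p = 0.00289 and 0.0253. The mean level at 20 mg/kg was above that at 40 mg/kg, and the doses did not overlap (log2 -0.27, -0.48 to -0.06, edgeR adjusted p = 0.961). The call at 40 mg/kg was lost without any one of normal replicates 1 and 3 and SIN (40 mg/kg) replicates 1 and 3 (adjusted p up to 0.0781).

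Nfil3 (ENSRNOG00000011668), the repressor at the D-box, had its highest group mean in normal kidneys. It is the gene with the fewest counts of the 7, from 40 to 245 in a library. Its levels were 9.34, 12.0, 8.52 and 5.97 CPM in normal, 8.19, 7.94, 3.62 and 7.12 CPM in DN, 6.03, 4.69, 2.02 and 2.92 CPM at 20 mg/kg and 2.93, 3.0, 3.46 and 3.73 CPM at 40 mg/kg. The SIN (40 mg/kg) rats all lay below the normal rats, whereas DN overlapped with both. Nfil3 fell to 0.369 of the normal level at 40 mg/kg (log2 -1.44, SE 0.22, edgeR adjusted p = 0.0048). At 20 mg/kg the log2 difference from normal was -1.18 (-1.92 to -0.44) with edgeR adjusted p = 0.067, or -1.47 and 0.0262 without SIN (20 mg/kg) replicate 1. Between DN and normal it was -0.41 (-1.04 to 0.22), and -0.20 without DN replicate 3 or -0.25 without normal replicate 2.

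**Figure D1:**
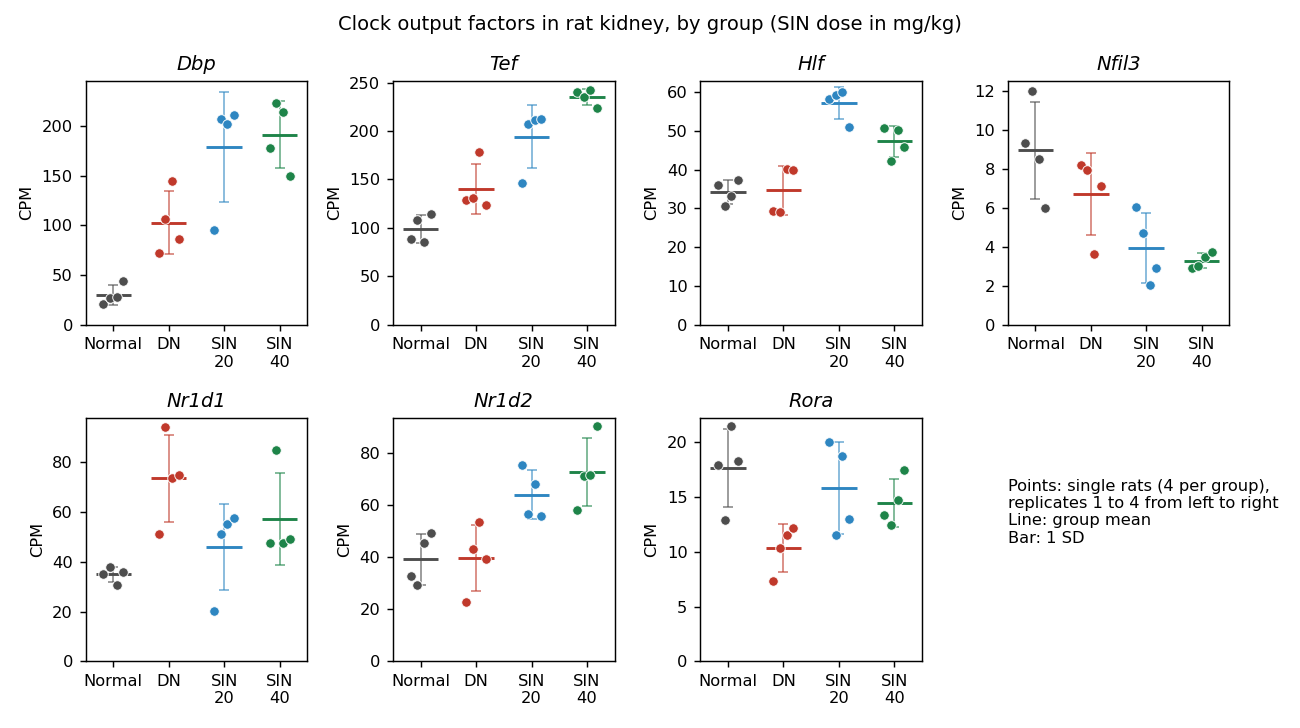
Level of each of the 7 genes in CPM in every rat, by group, on a vertical axis of its own for each gene. Points are rats and bars are group means with SD. Normal rats of Dbp lie between 20.4 and 43.9 CPM, below all others, and the 4 Tef values at 40 mg/kg lie between 224.0 and 242.2 CPM, above all others.

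Nr1d1 (ENSRNOG00000009329), which encodes REV-ERBα, was the only one of the 7 with its highest group mean in DN. Its levels were 35.2, 38.0, 30.6 and 36.0 CPM in normal rats and 51.1, 94.2, 73.8 and 74.9 CPM in DN rats, with no overlap. The SIN (20 mg/kg) rats held 20.4, 51.2, 55.3 and 57.5 CPM and the SIN (40 mg/kg) rats 47.4, 85.0, 47.5 and 49.3 CPM, both overlapping with DN. Nr1d1 rose 2.1-fold in DN over normal (log2 1.07, SE 0.16, 0.71 to 1.44, edgeR adjusted p = 0.00551). Against DN it was at -0.67 (-1.34 to -0.01) and -0.34 (-0.85 to 0.16) log2 at 20 and 40 mg/kg, neither passing the adjusted test. The first became -0.43 without SIN (20 mg/kg) replicate 1, and the second -0.61 without SIN (40 mg/kg) replicate 2 and -0.20 without DN replicate 2. At 40 mg/kg against normal, the difference of 0.72 had edgeR adjusted p = 0.0501. At 20 mg/kg it was 0.40 with adjusted p = 0.439, and 0.64 with adjusted p = 0.00705 without replicate 1 of that group, the rat at 20.4 CPM. Without SIN (40 mg/kg) replicate 2, the rat at 85.0 CPM, the difference at 40 mg/kg was 0.47 with adjusted p = 0.0456, and it also passed without replicate 1 or 4 of that group (0.0484 and 0.0496). The gene lies across Thra on the other strand in the RefSeq annotation, and its count was not whole in any of the 16 libraries, while the other 6 genes were whole in all 16. No source used here states that counting used strand. Thra itself, a thyroid hormone receptor gene, had a log2 difference of -0.04 (-0.32 to 0.25) between DN and normal, and it fell in SIN (40 mg/kg) against normal (log2 -0.55, SE 0.12, edgeR adjusted p = 0.0288).

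Nr1d2 (ENSRNOG00000046912), which encodes REV-ERBβ, had levels of 32.8, 29.2, 45.3 and 49.4 CPM in normal and 22.9, 43.2, 53.4 and 39.5 CPM in DN. They reached 75.6, 56.7, 68.1 and 55.8 CPM at 20 mg/kg and 58.2, 71.2, 71.6 and 90.2 CPM at 40 mg/kg. The untreated groups overlapped and all 8 sinomenine rats lay above them. The log2 difference of DN from normal was 0.02 (-0.55 to 0.58), and Nr1d2 rose over normal by 0.71 (SE 0.18) and 0.90 (SE 0.19) at the lower and higher dose (edgeR adjusted p = 0.0437 and 0.0205). The call at 20 mg/kg was lost when any single rat other than normal replicate 4 was left out (adjusted p up to 0.11), and that at 40 mg/kg without normal replicate 1 or SIN (40 mg/kg) replicate 2 or 3 (up to 0.0603).

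Rora (ENSRNOG00000027145), which encodes the activator RORα, was lower in DN. It stood at 17.9, 12.9, 21.5 and 18.3 CPM in normal rats and 7.34, 10.3, 11.5 and 12.2 CPM in DN rats, with no overlap. The SIN (20 mg/kg) rats held 20.0, 11.5, 18.7 and 13.0 CPM and the SIN (40 mg/kg) rats 13.3, 12.4, 14.7 and 17.4 CPM. Rora fell to 0.583 of the normal level in DN (log2 -0.78, SE 0.20, edgeR adjusted p = 0.0273). That call was lost without any one of normal replicates 1, 3 and 4 and DN replicates 1 and 2 (adjusted p up to 0.08), and held without DN replicate 3. Against normal it differed by -0.16 (-0.63 to 0.31) at 20 mg/kg and -0.29 (-0.67 to 0.09) at 40 mg/kg, and leaving out single rats moved these to between -0.30 and -0.03 and between -0.42 and -0.18. All SIN (40 mg/kg) rats lay above the DN rats, by values as close as 12.4 and 12.2 CPM.

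Whether sinomenine moved these genes away from the DN state was asked by setting each SIN group against DN. The edgeR test called 0 of 15724 genes at 20 mg/kg and 0 of 15530 at 40 mg/kg, which is 0% in both, and so 0 of the 7. DESeq2 called 221 and 436 genes, among them Hlf at 20 mg/kg and Dbp, Tef, Nfil3 and Nr1d2 at 40 mg/kg. At an unadjusted p under 0.05, the test had 6 of the 7 at 20 mg/kg (5 higher, 1 lower) where 15.4% of all genes reached it (9.2% higher, 6.24% lower). It had 6 of the 7 at 40 mg/kg (5 higher, 1 lower) where 17.1% did (9.9% higher, 7.21% lower). Dbp, Tef, Hlf, Nr1d2 and Rora were the higher ones at both doses. The lower one was Nr1d1 at 20 mg/kg and Nfil3 at 40 mg/kg.

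The member with the lowest adjusted p was Hlf at 20 mg/kg and Tef at 40 mg/kg. Hlf was 1.65-fold higher at 20 mg/kg than in DN (log2 0.72, SE 0.13, 0.43 to 1.02, edgeR adjusted p = 0.223), and Tef was 1.7-fold higher at 40 mg/kg (log2 0.76, SE 0.12, 0.49 to 1.04, edgeR adjusted p = 0.148). Without DN replicate 3, the Tef difference was 0.90 and passed the test (edgeR adjusted p = 0.0413). The groups did not overlap for 2 of the 7 at 20 mg/kg (Hlf and Nr1d2) against 8.86% of all genes, and for 5 at 40 mg/kg (Dbp, Tef, Hlf, Nr1d2 and Rora) against 10.7%. Nfil3 at 40 mg/kg was at 0.494 of the DN level (log2 -1.02, -1.60 to -0.43, edgeR adjusted p = 0.187), with DN replicate 3 inside the range of the treated rats. Nr1d2 was higher than in DN by 0.69 (0.19 to 1.19) and 0.89 (0.37 to 1.41) log2 at 20 and 40 mg/kg, and Rora by 0.62 (0.13 to 1.11) and 0.50 (0.10 to 0.90). The difference of Nfil3 at 20 mg/kg was -0.77 (-1.58 to 0.04), or -1.06 without SIN (20 mg/kg) replicate 1 and -0.98 without DN replicate 3. Without DN replicate 3 it was -1.22 at 40 mg/kg (edgeR adjusted p = 0.0824). The median log2 difference of the 7 from DN was 0.62 at 20 mg/kg and 0.50 at 40 mg/kg. Over all genes tested it lay between -0.01 and 0.01 in every comparison. Both comparisons share the DN rats.

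The doses were compared with each other too, and 1 of 15657 genes passed the test (0.00639%), which was not a member. Tef and Hlf reached an unadjusted p under 0.05 there, as 4.98% of all genes did (2.41% higher, 2.57% lower), with Tef higher and Hlf lower at 40 mg/kg. Those 2 were also the members whose groups did not overlap, against 3.3% of all genes. For the other members the interval of the log2 difference was -0.42 to 0.61 for Dbp, -0.96 to 0.45 for Nfil3, -0.36 to 0.99 for Nr1d1, -0.14 to 0.52 for Nr1d2 and -0.57 to 0.31 for Rora. Without SIN (20 mg/kg) replicate 1 the differences of Dbp, Nfil3 and Rora changed sign, to -0.11, 0.03 and 0.01, and those of Tef and Nr1d1 went from 0.28 to 0.17 and from 0.32 to 0.07. Nr1d1 was also at 0.07 without SIN (40 mg/kg) replicate 2, and Nr1d2 went from 0.19 to 0.07 without SIN (40 mg/kg) replicate 4.

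Against normal, which shares its rats between these comparisons, 4 of the 7 rose at 20 mg/kg and none fell, where 6.36% of 15877 genes were called (2.77% higher, 3.58% lower). At 40 mg/kg 4 rose and Nfil3 fell, where 5.97% of 15735 were called (2.28% higher, 3.69% lower). Groups did not overlap with normal for 4 members at 20 mg/kg and 6 at 40 mg/kg, against 13.6% and 13.9% of all genes. Dbp, Tef, Hlf and Nr1d2 were the ones that rose at both doses. The medians of the 7 were 0.71 and 0.72 log2, beside 0.02 for DN over normal.

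**Figure D2:**
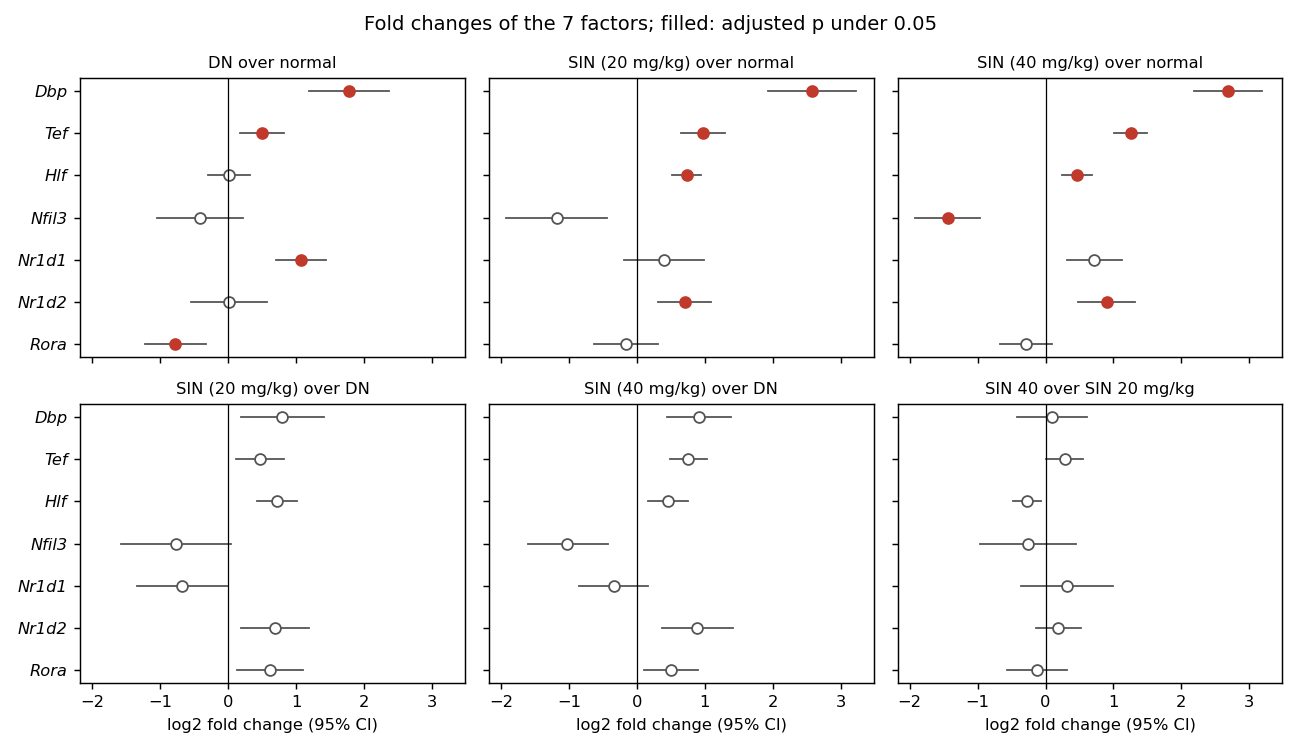
Log2 fold change with 95% interval of each of the 7 genes in each comparison, filled where the edgeR adjusted p is under 0.05. Dbp lies at 1.78 in DN over normal and at 2.58 and 2.68 in the SIN groups over normal, while no member is filled for SIN over DN.

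The factors that compete for one DNA element were set against each other within each rat as differences of log2 CPM. Dbp minus Nfil3, activator against repressor at the D-box, averaged 1.71 in normal rats (1.12 to 2.86), 3.93 in DN (3.13 to 5.29), 5.53 at 20 mg/kg (3.97 to 6.58) and 5.81 at 40 mg/kg (5.29 to 6.17). Every normal rat was below every other rat. Tef minus Nfil3 averaged 3.48, 4.42, 5.70 and 6.13 in the same order, but here normal (3.17 to 4.24) overlapped with DN (3.95 to 5.58). At the ROR element, Nr1d2 minus Rora averaged 1.13, 1.90, 2.04 and 2.32, with every normal rat (0.87 to 1.43) below every other (1.63 to 2.51). Nr1d1, per kilobase of transcript the more abundant repressor there, did not follow this order. Its means were 34.9, 73.5, 46.1 and 57.3 CPM, beside 17.7, 10.3, 15.8 and 14.4 CPM of Rora. SIN (20 mg/kg) replicate 1 held 20.4 CPM of Nr1d1 and 20.0 CPM of Rora. The normal rats held 30.6 to 38.0 CPM of Nr1d1 and 12.9 to 21.5 CPM of Rora.

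The balance of the REV-ERB genes was highest in DN. Nr1d1 minus Nr1d2 was 1.16, 1.12, 0.47 and 0.92 in the DN rats, and between -0.56 and 0.38 in the normal rats, -1.89 and 0.04 at 20 mg/kg and -0.87 and 0.26 at 40 mg/kg, so every DN rat lay above all others. Dbp minus Nr1d1 was 1.86 to 2.22 at 20 mg/kg and 1.39 to 2.17 at 40 mg/kg, above the 0.18 to 0.97 of DN and the -0.78 to 0.29 of normal. These are levels of each gene relative to another, described without a test.

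**Figure D3:**
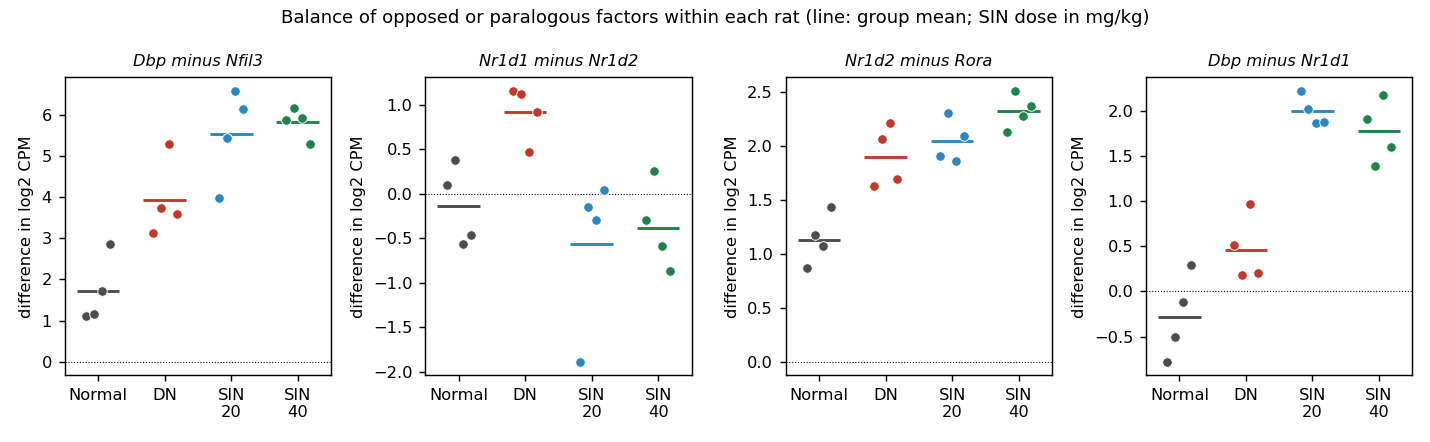
Differences of log2 CPM between pairs of the genes in every rat, by group. Dbp minus Nfil3 averages 1.71 in normal and 5.81 at 40 mg/kg, and Nr1d1 minus Nr1d2 is 0.47 or more in all 4 DN rats and 0.38 or less in all others.

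Within groups, some members varied together from rat to rat. After group means were removed, Pearson's r over the 16 rats, which share their library's depth and scaling, was 0.85 for Dbp with Tef, 0.69 for Dbp with Nr1d1 and -0.73 for Dbp with Nfil3. It was 0.79 for Nr1d2 with Rora, and 0.01 for Nr1d1 with Nr1d2. Replicate 1 of the SIN (20 mg/kg) group is an example of it, with the lowest Dbp, Tef and Nr1d1 of its group and the highest Nfil3, Nr1d2 and Rora. Leaving out 1 rat at a time, r for Dbp with Tef ran from 0.75 to 0.89 and for Dbp with Nr1d1 from 0.40 to 0.76. Both lowest values, 0.75 and 0.40, came without replicate 1 of the SIN (20 mg/kg) group, so these r depend in part on that rat. Single rats were left out only for pairs with Dbp. The 0.01 for Nr1d1 with Nr1d2 takes in rats that went different ways. SIN (20 mg/kg) replicate 1 deviated from its group mean by -1.06 log2 in Nr1d1 and 0.25 in Nr1d2. For DN replicate 1 these deviations were -0.49 and -0.73. All r here are descriptions and carry no p.

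**Figure D4:**
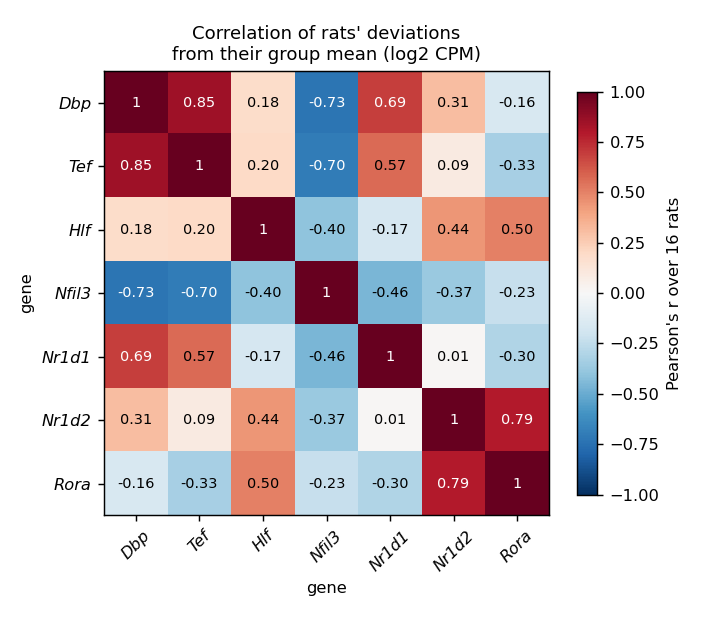
Pearson's r between pairs of the 7 genes over 16 rats, from log2 CPM after each group's mean was taken out. Dbp with Tef stands at 0.85 and Dbp with Nfil3 at -0.73, while Nr1d1 with Nr1d2 is at 0.01. Single rats were not left out for the last pair.

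The genes whose levels over all 16 rats were most like Dbp, among 16334, were Ciart, Cry2 and Tef (r of 0.945 each), Per3 (0.939) and Gpt2 (0.931). Ciart, Cry2 and Per3 are clock repressors and Gpt2 is an alanine aminotransferase. Most like Nfil3 were Pnrc1 (0.918), Il2rg (0.894), Arntl (0.882), Dtx4 (0.879) and Col4a1 (0.861), of which Arntl encodes BMAL1. These correlations include the differences between groups, and within groups r with Dbp was 0.66 for Ciart, 0.64 for Cry2, 0.54 for Per3 and 0.29 for Gpt2.

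Other clock genes were taken from lists of activators, repressors, D-box targets, ROR-element targets and E-box outputs. Between DN and normal, 7 repressors and 3 activators were tested, where 8.74% of all genes rose and 10.8% fell. Per2 (log2 0.61), Per3 (1.00) and Cry2 (0.56) of the repressors rose. The activators Arntl (-1.19), Clock (-0.84) and Npas2 (-1.58) fell. Against normal, 9 of the 21 genes of these lists that were tested rose and 2 fell at each dose, where 2.77% of all genes rose and 3.58% fell at 20 mg/kg and 2.28% rose and 3.69% fell at 40 mg/kg. The 2 were Arntl (-3.23 and -2.76) and Npas2 (-3.66 and -2.66). The genes that rose at both doses were Per2 (1.69 and 1.46), Per3 (2.04 and 1.97), Cry1 (0.83 and 0.84), Cry2 (1.01 and 1.14), Ciart (4.73 and 5.01), Bhlhe41 (1.36 and 1.96), Wee1 (1.20 and 1.04), a cell cycle kinase, and Usp2 (1.45 and 1.65), a deubiquitinase. Per1 (0.84) rose at 40 mg/kg and Apoc3 (0.62), an apolipoprotein gene, at 20 mg/kg. Ciart was at a mean of 0.249 CPM in normal rats, so its fold depends on very few counts there.

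By binding site, the ROR-element targets other than Nfil3 had 3 of 7 tested genes lower in DN than in normal, where 10.8% of all genes were. The 3 are Arntl, Clock and Npas2, the activators already counted above. The list had 2 higher and 2 lower at 20 mg/kg and 1 higher and 2 lower at 40 mg/kg against normal. Their lower genes there were Arntl and Npas2. Of the D-box targets that are not among the 7 factors, 7 were tested, and 2 rose in DN and at 20 mg/kg (Per2 and Per3) and 3 at 40 mg/kg (Per1 too). Over normal, 8.74% of all genes rose in DN, 2.77% at 20 mg/kg and 2.28% at 40 mg/kg. The Per genes are repressors already named above. The D-box targets that are not clock genes, Pdxk, Por, Alas1 and Ppara, did not pass the test in any comparison. Between the SIN groups and DN no gene of these lists was called, and the one with the smallest p at 20 mg/kg was Npas2 (log2 -2.08, edgeR adjusted p = 0.0585), and at 40 mg/kg Arntl (log2 -1.57, edgeR adjusted p = 0.148). These lists were chosen with earlier results known and add no independent support.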

How the data were processed

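The authors enriched polyadenylated RNA from kidney, made Illumina libraries, removed adapters and weak bases (SeqPrep, Sickle) and mapped the reads to the rat genome (Rnor_6.0 in the submitters' processing notes, which also name TopHat, Bowtie, RSEM and edgeR). They deposited estimated counts per gene, with no normalization, in 1 table, of whose nonzero values 74.3% were whole. Columns were joined to rats by the library names in the labels, and 4 library columns that no sample record names were not used.

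Estimated counts were rounded to whole numbers and tested with edgeR 4.0.16 (R 4.3.3) by the quasi-likelihood test, with TMM, filterByExpr over the 8 rats of a comparison, a separate fit for each of 6 comparisons, two-sided tests and Benjamini-Hochberg adjustment over all genes tested. CPM per rat used TMM over all 16 rats, and log2 CPM a prior count of 2. Library totals ran from 19616312 to 25217030 counts, and Nfil3 had the fewest counts of the 7 factors. Spread between rats also entered the precision: in SIN (40 mg/kg) over normal the SE was 0.23 for Dbp and 0.22 for Nfil3. Alternatives were DESeq2 1.42.0, RLE, no filter, at least 10 counts in every rat, all 16 rats in 1 fit, a block for the replicate number, leaving out single rats, and for log2 CPM a prior count of 0.25. Only the fits of DN against normal were tried on simulated counts, with changes larger than most of those of the 7 factors. The fit of all 16 rats, leaving out single rats, the correlations and the motif search were not tried so. All 7 factors are named in every comparison. Of the clock lists, the genes called are named, or where none was called the one with the smallest p, and for Dbp and Nfil3 the 5 genes most like each by Pearson's r. A further list, of clock kinases and related genes, is not reported here. Thra, which overlaps Nr1d1, was chosen for its position. The factors and lists were chosen with earlier results of these data known. Rats are separate animals. Gene models are those of the table, and promoter windows are RefSeq's on GRCr8.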

Additional observations from a re-analysis of the deposited data

Results flagged for a closer look

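In 5 of the 28 sets of 4 rats (7 genes in 4 groups), 1 rat lay beyond Dixon's 95% critical value. The nominal rate is about 1 in 20 for independent, normally distributed sets. These sets share rats, and the share over all genes was not computed, so no excess is claimed. Replicate 1 of the SIN (20 mg/kg) group accounts for 3 of the 5 flags. It held 95.6 CPM of Dbp, against 201.7 to 210.6 CPM in the other rats of its group, 146.0 CPM of Tef, against 207.3 to 212.0 CPM, and 20.4 CPM of Nr1d1, against 51.2 to 57.5 CPM. The same rat had the highest Nfil3 (6.03 CPM), Nr1d2 (75.6 CPM) and Rora (20.0 CPM) of its group. DN replicate 3 held 178.2 CPM of Tef, against 123.1 to 131.2 CPM in the rest of that group. SIN (40 mg/kg) replicate 2 held 85.0 CPM of Nr1d1, against 47.4 to 49.3 CPM.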

How the results depend on the processing

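The rises of Dbp and Nr1d1 in DN over normal, and of Dbp and Tef in both SIN groups, Hlf at 20 mg/kg and the fall of Nfil3 at 40 mg/kg over normal, held under every alternative run. The genes called in DN over normal fell from 3074 to 1325 with the replicate block (769 to 3781 with 1 rat left out), and the members called from 4 to 2 (2 to 4). In SIN (20 mg/kg) over DN, 0 genes became 221 with DESeq2, 2 with no filter, 2 with at least 10 counts and 13 with all 16 rats in 1 fit (0 with any rat left out), and 0 members became 1 (Hlf) with DESeq2 and with all 16 rats. In SIN (40 mg/kg) over DN, 0 genes became 436 with DESeq2 and 8 with all 16 rats (0 to 4 with 1 rat left out), and 0 members became 4 with DESeq2 (Dbp, Tef, Nfil3 and Nr1d2; 0 to 1 with 1 rat left out). In the dose comparison 1 gene became 17 with DESeq2 and 0 with all 16 rats and with the block (0 to 5 with 1 rat left out). Against normal, 1009 genes at 20 mg/kg became 1726 and 940 at 40 mg/kg became 1761 with DESeq2 (551 to 1230 and 462 to 1016 with 1 rat left out), and members called ran from 3 to 5 and from 3 to 6. With the replicate block the differences of Hlf (0.00) and Nr1d2 (-0.01) in DN over normal changed sign, and the calls of Tef (adjusted p = 0.0965) and Rora (0.0513) in DN over normal and Nr1d2 at 20 mg/kg over normal (0.053) were lost, while Nfil3 at 20 mg/kg (0.0333) and Nr1d1 at 40 mg/kg (0.0234) over normal passed. No source says that the replicate numbers pair the rats. Same-numbered rats' deviations correlated by -0.24 to 0.24, and 5 of 48 correlated best with their own number. Of those 5, 4 came from normal with SIN (40 mg/kg), where 8 were compared. With 4 rats a group this check cannot decide whether the numbers are shared. With 1 rat left out, Hlf in DN over normal ran up to 0.09 and Nr1d2 up to 0.21, and in the dose comparison Dbp ran up to 0.20, Nfil3 down to -0.47 and Rora down to -0.26. Without normal replicate 2, DN replicate 3 or DN replicate 4, Hlf in DN over normal was -0.05, -0.06 and -0.07, and Nr1d2 was -0.06, -0.11, -0.02 and -0.16 without normal replicates 1 and 2 and DN replicates 2 and 3. In the dose comparison without SIN (20 mg/kg) replicate 1, Dbp was -0.11, Nfil3 0.03 and Rora 0.01. Nfil3 at 20 mg/kg over normal also passed with DESeq2 (0.00731) and with all 16 rats (0.0324), Nr1d2 there did not with all 16 rats (0.0704), and Nr1d1 at 40 mg/kg passed with DESeq2 (0.00472), no filter (0.0482) and at least 10 counts (0.0452). With 1 rat left out, the within-group r of Dbp ran from 0.75 to 0.89 with Tef, -0.02 to 0.28 with Hlf, -0.83 to -0.61 with Nfil3, 0.40 to 0.76 with Nr1d1, 0.12 to 0.61 with Nr1d2 and -0.39 to 0.14 with Rora. The cause of these changes was not tested. Nfil3 rests on 40 to 245 counts a library, which limits its precision.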
